A study of Rattus norvegicus with 294 samples.

Results

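The transcriptome of osteocytes was compared between rats that had received a high dose of a sclerostin antibody until day 183 and vehicle rats, both killed on day 237, 54 days after the last day of the dosing period. The comparison is defined by labels, namely osteocyte arrays of day 237 at a dose of 50 mg/kg or of the negative control. It holds 10 of the 97 osteocyte arrays and 10 of all 294 arrays of the study. The treated group has 5 arrays from female Sprague Dawley rats given 50 mg/kg of the antibody (Scl-Ab, altered so that rats would react to it less) under the skin each week and then left without it. The vehicle group has 5 arrays from rats given the carrier (Tween 20, sucrose and sodium acetate) on the same scheme. All rats of both groups were ovariectomized at 6 months of age, stayed untreated for the next 8 weeks, and carried calcein labels given 13 and 3 days before necropsy. Ovariectomy models the loss of oestrogen after menopause. The osteocytes were cut by laser from cryosections of the third lumbar vertebra, RNA was amplified from 1.5 ng, and each array holds such amplified RNA.

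Osteocytes are former osteoblasts that have become buried in the bone matrix, where they stay connected through thin processes. They are known as the source of sclerostin, the product of Sost, which binds the Wnt co-receptors Lrp5 and Lrp6 on bone cells and so restrains Wnt signalling and bone formation. An antibody against sclerostin removes that restraint, and bone formation is known to rise early and to wane later under continued treatment. The comparison of day 237 asks what the osteocytes of such bone express once the antibody has been withdrawn.

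Signals are given as log2 of the deposited signal, so that a difference of 1 is a doubling, and a difference is always 50 mg/kg minus vehicle. The 2 groups were compared gene by gene with limma, and a gene was called at a Benjamini-Hochberg adjusted p under 0.05. Arrays of the same group correlated at 0.953 to 0.98 between treated arrays and at 0.956 to 0.976 between vehicle arrays, and treated with vehicle arrays at 0.935 to 0.974, so no array stood apart. The label of the cell type was checked against marker genes, which were split. Mepe and Dmp1, genes of the mineralizing osteocyte, were highest in osteocyte arrays. Mepe averaged 13.13 at 50 mg/kg and 10.28 in vehicle in osteocyte arrays, against 6.15 and 5.56 in osteoblast arrays and 5.74 and 4.97 in lining cell arrays of the same day. Dmp1 averaged 12.19 at 50 mg/kg and 10.50 in vehicle in osteocyte arrays, and no more than 7.10 in either of the other cell types. Pdpn (podoplanin) averaged 6.19 at 50 mg/kg and 3.99 in vehicle in osteocyte arrays, and no more than 3.74 in either of the other cell types. Phex, at low signals, averaged 3.34 and 3.05 in osteocyte arrays, and no more than 2.59 in the others. Other markers did not follow the label in every comparison. One was Fgf23, a phosphate-regulating hormone of osteocytes, whose probe set stayed near 2.22 at 50 mg/kg and 2.24 in vehicle in osteocyte arrays, below its level in osteoblast and lining cell arrays. Sost averaged 3.38 at 50 mg/kg and 2.80 in vehicle in osteocyte arrays, against 3.06 and 2.98 in osteoblast arrays and 2.78 and 2.55 in lining cell arrays. In vehicle osteocytes it was thus no higher than in osteoblasts, but higher than in lining cells. The median log2 signal over all probe sets was 2.99 in osteocyte, 3.52 in osteoblast and 3.23 in lining cell arrays. Fgf23 and vehicle Sost lay below these medians, where signals cannot rank the cell types. The osteoblast products Bglap and Col1a1 averaged 10.98 and 11.27 in vehicle osteocyte arrays, above the 10.05 and 10.63 of vehicle osteoblast arrays. These cell type means were not tested against each other. The number of arrays limits the precision of each value. The labels say that the first 5 animals of each group and time were used but tie no array to a named animal.

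Marker genes of marrow cells were detected on these arrays as well, at lower levels in the treated group. The mean log2 signal of 39 erythroid, granulocyte and B-lineage markers ran from 6.48 to 6.66 on the 50 mg/kg arrays and from 6.92 to 7.29 on the vehicle arrays, with no overlap. Because these are captured samples of mixed RNA, fewer cells of a type and less RNA per cell cannot be told apart. The list counts below were also made with this marrow score as a covariate, and those that moved by more than 1.5 times are given.

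Of 11859 genes tested, 1589 differed between the groups, which is 13.4% of them. Signals of 855 genes (7.21%) were higher at 50 mg/kg and those of 734 (6.19%) were lower, and 3068 genes (25.9%) had an unadjusted p under 0.05. Among the called genes, 271 (2.29% of all tested) were higher by at least 1 on the log2 scale and 145 (1.22%) lower by at least 1. In 425 genes (3.58%) all treated arrays lay above all vehicle arrays, and in 345 genes (2.91%) all lay below. The median difference over all tested genes was -0.01. With the marrow score as a covariate 639 genes were higher and 133 lower, and 540 of the 772 were also among the 1589. Without any one of the 10 arrays the number called lay between 1180, without vehicle replicate 5, and 1657.

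**Figure D1:**
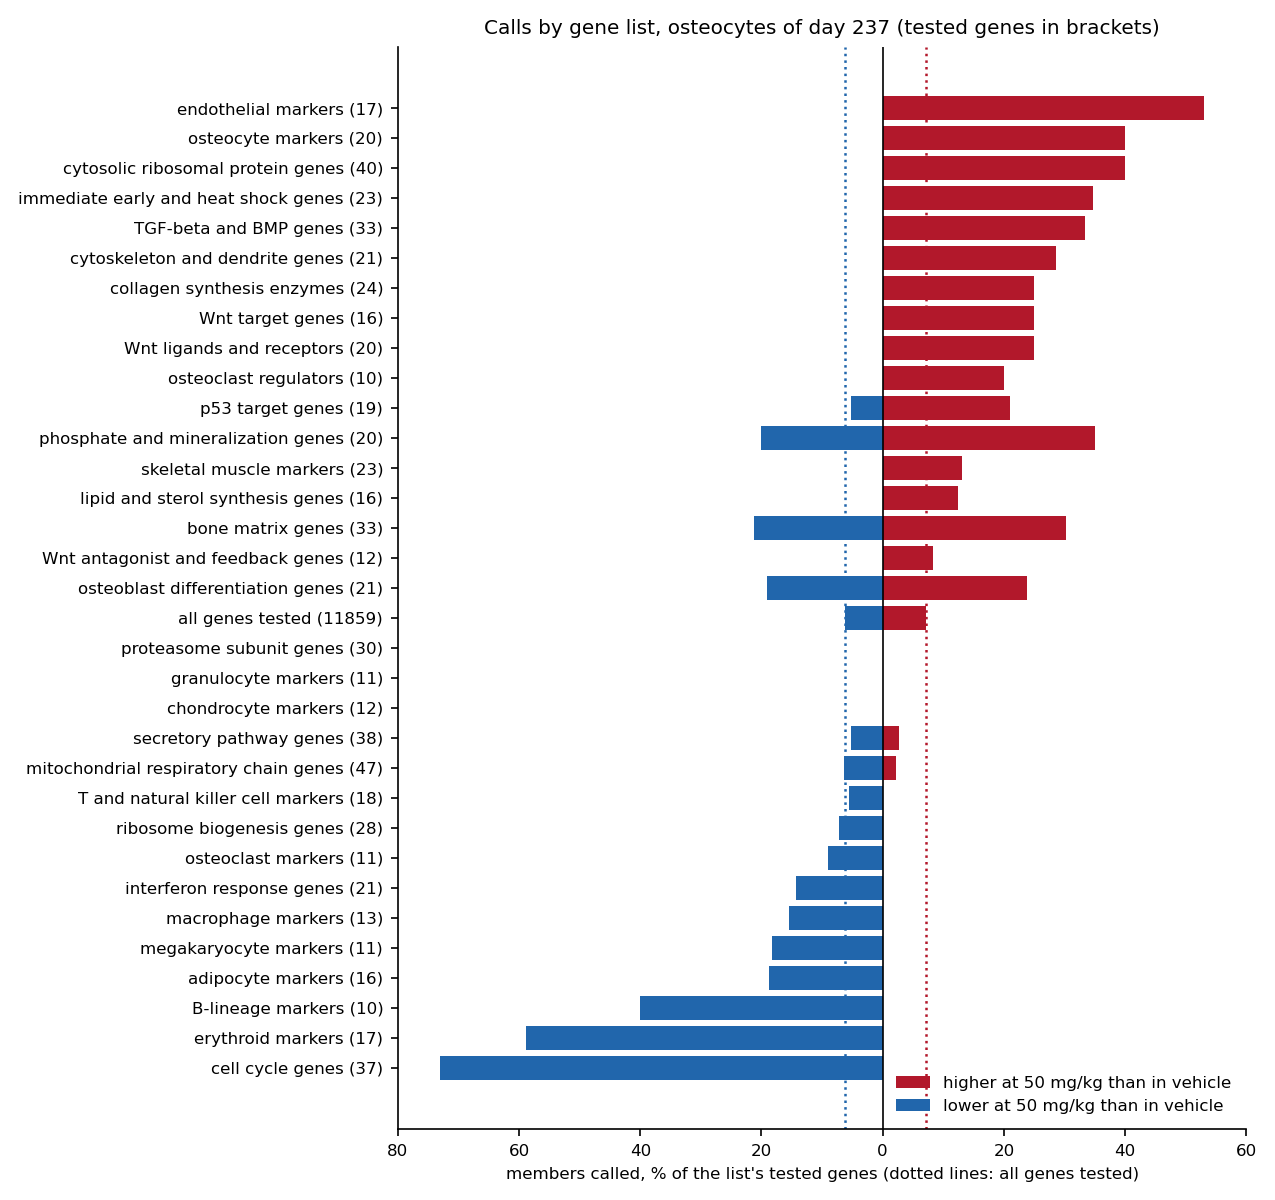
Share of the tested members of each gene list that was called on day 237 in osteocytes, with members higher at 50 mg/kg to the right of zero and lower ones to the left, in percent. The number of tested genes is in brackets and the dotted lines mark all genes tested (7.21% higher and 6.19% lower): osteocyte, endothelial and ribosomal protein lists extend to the right, while cell cycle and erythroid lists extend to the left.

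Several genes that mark mature osteocytes rose. Of 20 tested osteocyte markers 8 were higher at 50 mg/kg and none was lower (6 and 1 with the marrow score as a covariate), with a median difference of 0.39, against 7.21% higher, 6.19% lower and a median of -0.01 over all genes. Of the 25 listed osteocyte markers 13 are also in another list, and other lists share members too. The list counts here and below are thus not separate results. Mepe, which encodes a matrix phosphoglycoprotein of embedded osteocytes, had signals of 13.21, 13.08, 12.81, 13.01 and 13.57 on the 50 mg/kg arrays, against 10.52, 11.41, 9.18, 11.82 and 8.45 on the vehicle arrays. All treated arrays lay above the highest vehicle array and close together, while the vehicle arrays were widely spread. The difference was 2.86 (SE 0.43, adjusted p = 4.68e-07), a ratio of 7.26 on the linear scale. Dmp1, which encodes an acidic protein needed for osteocyte maturation and mineral deposition, had signals of 12.47, 12.23, 12.24, 12.08 and 11.94 on the 50 mg/kg arrays, against 10.98, 11.26, 9.68, 11.25 and 9.33 on the vehicle arrays. The groups did not overlap, and vehicle replicates 3 and 5, the lowest for Mepe, were the lowest here too. Dmp1 differed by 1.69 (SE 0.30, adjusted p = 2.25e-05).

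Mef2c, a transcription factor that drives a distal enhancer of Sost in bone, had signals of 8.03, 8.28, 8.51, 8.96 and 9.63 on the 50 mg/kg arrays, against 5.94, 7.14, 4.96, 6.04 and 5.42 on the vehicle arrays. The lowest treated array was above the highest vehicle array, and the difference was 2.78 (SE 0.34, adjusted p = 1.67e-09). Sost itself gave low signals of 3.27, 3.15, 3.57, 3.35 and 3.56 on the 50 mg/kg arrays, against 2.88, 2.50, 2.88, 2.71 and 3.05 on the vehicle arrays, which do not overlap but lie near the bottom of the scale. The difference of 0.58 (SE 0.14, adjusted p = 0.00183) lost its call with the marrow score as a covariate (adjusted p = 0.0841), the 1 alternative of those run that did so. Ackr3, a scavenger receptor for the chemokine Cxcl12, averaged 7.60 ± 0.47 at 50 mg/kg and 4.49 ± 1.48 in vehicle (SD, n = 5 each) and rose by 3.11 (SE 0.38, adjusted p = 1.67e-09). Pdpn, the early osteocyte marker podoplanin that is needed for dendrite growth, rose by 2.20 (SE 0.40, adjusted p = 2.94e-05). Cd44, a hyaluronan receptor, and Ptprz1, a receptor phosphatase, rose by 1.12 and 1.13. Phex, a peptidase that controls phosphate handling, was not called at 0.29 (adjusted p = 0.317).

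Mepe and Dmp1 lie in a cluster of matrix protein genes on chromosome 14 of the GRCr8 assembly, together with Spp1 (osteopontin), Ibsp (bone sialoprotein) and Dspp. By RefSeq annotation Spp1 lies at chr14:5613569-5620695, Mepe at chr14:5725308-5736858, Ibsp at chr14:5744497-5757242, Dmp1 at chr14:5833111-5867154 and Dspp at chr14:5870232-5876339. Only the osteocyte members of the cluster, Mepe and Dmp1, were called on day 237. Spp1 averaged 9.91 ± 0.37 at 50 mg/kg and 9.64 ± 0.76 in vehicle (SD, n = 5 each), a difference of 0.27 (SE 0.31, adjusted p = 0.633). Ibsp, which lies between the risen genes, averaged 9.52 ± 0.10 at 50 mg/kg and 9.50 ± 0.41 in vehicle (SD, n = 5 each), a difference of 0.02 (SE 0.22, adjusted p = 0.975). Dspp stayed near the bottom of the scale, with 2.87 at 50 mg/kg and 2.78 in vehicle. Whether the changes of Mepe and Dmp1 differ from those of their neighbours was not tested.

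**Figure D2:**
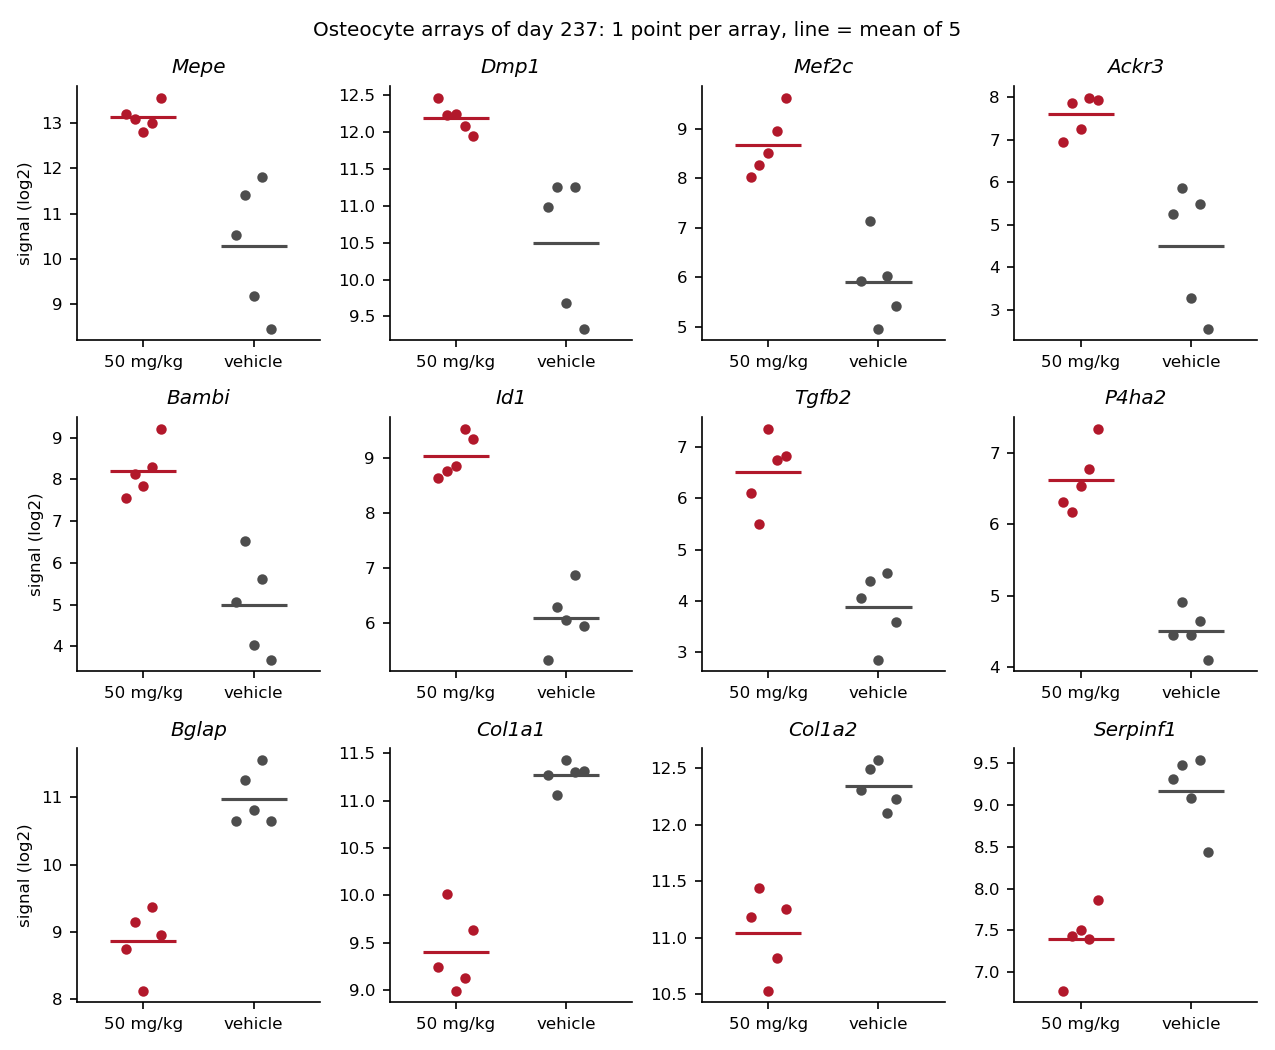
Log2 signal of 12 genes on each osteocyte array of day 237, with the 50 mg/kg arrays on the left and the vehicle arrays on the right of each panel; points are arrays and lines are means of 5. In the upper 8 panels all treated arrays lie above all vehicle arrays (Mepe 12.81 to 13.57 against 8.45 to 11.82), and in the lower 4 panels all lie below (Bglap 8.13 to 9.38 against 10.64 to 11.56).

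Genes that rose together also belong to TGF-beta and BMP signalling, the growth factor system that bone matrix stores and osteoblasts answer to. Of 33 tested genes 11 were higher (7.21% of all genes were) and none was lower, with a median difference of 0.22. Among the ligands, Tgfb2 had signals of 6.10, 5.50, 7.36, 6.75 and 6.82 on the 50 mg/kg arrays, against 4.06, 4.40, 2.86, 4.55 and 3.60 on the vehicle arrays. Every treated array exceeded every vehicle array, and the difference was 2.62 (SE 0.34, adjusted p = 7.39e-09). A dimmer probe set of Tgfb2 differed by 0.02, so this rise rests on a single probe set. Tgfb3, Bmp7 and Bmp2 rose by 1.36, 1.48 and 1.13. Genes of the latent TGF-beta binding protein family rose as well. The differences were 1.63 for Ltbp3 and 1.40 for Ltbp1, whose products tether the ligand to the matrix, and 1.11 for Ltbp2.

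Id1, a direct BMP target that blocks differentiation factors, had signals of 8.64, 8.77, 8.85, 9.54 and 9.35 on the 50 mg/kg arrays, against 5.33, 6.29, 6.06, 6.88 and 5.95 on the vehicle arrays. The gap between the lowest treated and the highest vehicle array was wide, and the difference was 2.93 (SE 0.28, adjusted p = 3.55e-13), a ratio of 7.61. Its relatives Id2 and Id3 rose by 0.73 and 0.74. Bambi, a decoy receptor that dampens TGF-beta and BMP signals, had signals of 7.56, 8.13, 7.83, 8.30 and 9.21 on the 50 mg/kg arrays, against 5.06, 6.52, 4.04, 5.62 and 3.67 on the vehicle arrays. No arrays overlapped, and the difference of 3.22 (SE 0.43, adjusted p = 1.64e-08) was a ratio of 9.34. The inhibitory Smad7 rose by 0.55, while Smad6 was at -0.08 and was not called. With the marrow score as a covariate 8 members were higher and none was lower.

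Type I collagen and osteocalcin, the main products of bone-forming cells, moved the opposite way. Bglap encodes osteocalcin, the vitamin K-dependent protein of mineralizing osteoblasts, and its signals were 8.75, 9.15, 8.13, 9.38 and 8.95 on the 50 mg/kg arrays, against 10.64, 11.25, 10.81, 11.56 and 10.64 on the vehicle arrays. The highest treated array stayed below the lowest vehicle array. Bglap fell by 2.11 on the log2 scale (SE 0.31, adjusted p = 3.13e-07), to 0.232 of vehicle on the linear scale. Col1a1, one of the chains of type I collagen, had signals of 9.24, 10.02, 8.99, 9.13 and 9.63 on the 50 mg/kg arrays, against 11.27, 11.06, 11.43, 11.31 and 11.31 on the vehicle arrays. The vehicle arrays lay very close together and all treated arrays were below them, with a difference of -1.87 (SE 0.35, adjusted p = 3.64e-05). Col1a2, the partner chain, had signals of 11.18, 11.44, 10.53, 10.82 and 11.25 on the 50 mg/kg arrays, against 12.31, 12.49, 12.58, 12.10 and 12.22 on the vehicle arrays. These groups did not overlap either, and the difference was -1.29 (SE 0.28, adjusted p = 0.000495). A second probe set of each collagen gene moved the same way, by -1.70 for Col1a1 and -1.55 for Col1a2.

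Further products of bone-forming cells fell with them. Serpinf1, whose loss causes a human form of brittle bone disease, had signals of 6.78, 7.44, 7.50, 7.40 and 7.86 on the 50 mg/kg arrays, against 9.31, 9.48, 9.09, 9.55 and 8.44 on the vehicle arrays. All treated arrays were below all vehicle arrays, and the difference was -1.78 (SE 0.35, adjusted p = 0.000138). Cthrc1, a secreted glycoprotein of osteoblasts, fell by 1.377 on the log2 scale (SE 0.36, adjusted p = 0.00445), and Omd, the proteoglycan osteomodulin, by 1.29 on the log2 scale (SE 0.32, adjusted p = 0.00264). Sparc (osteonectin) differed by -1.07 (SE 0.32, adjusted p = 0.015) with overlapping groups, and leaving out treated replicate 5 ended its call (adjusted p = 0.0527). The citrate transporter Slc13a5, the neutral sphingomyelinase Smpd3 and the phosphatase Phospho1, all linked to mineral formation, fell, with differences of -0.94, -0.93 and -0.56. Alkaline phosphatase (Alpl) was at -0.64, which was not called (adjusted p = 0.0715).

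The fall was not shared by all matrix genes. Of 33 tested bone matrix genes 7 were lower and 10 were higher, with a median difference of 0.10, against 6.19% lower and 7.21% higher among all genes. Those that rose include Col3a1, the fibrillar collagen of soft connective tissue, with signals of 5.70, 5.64, 6.50, 5.57 and 6.90 on the 50 mg/kg arrays, against 4.66, 4.57, 3.92, 4.13 and 4.20 on the vehicle arrays. The groups stood apart, and the difference was 1.77 (SE 0.32, adjusted p = 1.94e-05). All 3 chains of type VI collagen, a pericellular collagen, rose, Col6a1 by 1.46, Col6a2 by 0.93 and Col6a3 by 1.23. Tnc (tenascin C), Fmod (fibromodulin) and Smoc2, which binds calcium, were higher by 1.01, 0.85 and 1.70. Dimmer probe sets differed by 0.04 for Col6a3 and by 0.002 and 0.0009 for Smoc2. With the marrow score as a covariate 4 matrix genes were higher and 7 lower. Mgp, an inhibitor of mineralization, had signals of 11.67, 11.50, 11.26, 11.25 and 11.52 on the 50 mg/kg arrays, against 6.35, 11.48, 11.63, 6.63 and 6.76 on the vehicle arrays. Vehicle replicates 2 and 3 were as high as the treated arrays and the other vehicle arrays far lower, so the difference of 2.87 (SE 0.89, adjusted p = 0.0191) describes no uniform shift. The mean of 12 chondrocyte markers was also high on vehicle replicates 2 and 3 (5.00 and 4.84, against 3.25 to 3.39 on the other vehicle arrays). On the 50 mg/kg arrays the chondrocyte mean was 5.17 and 5.16 on replicates 1 and 2 and 3.56 to 3.79 on the others, while Mgp was high on all 5. Without vehicle replicate 1, 4 or 5 Mgp was no longer called.

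The proximal promoters of Mepe and Bglap are shown because these genes moved in opposite directions while each carries a single match to TGTGGT, the core letters bound by Runx factors, which govern osteoblast genes. Shown are the 250 bases before the annotated start site, from RefSeq on GRCr8 (minus strand, chr14:5736859-5737108 for Mepe and chr2:176137319-176137568 for Bglap), with the match on either strand in capitals.
Mepe: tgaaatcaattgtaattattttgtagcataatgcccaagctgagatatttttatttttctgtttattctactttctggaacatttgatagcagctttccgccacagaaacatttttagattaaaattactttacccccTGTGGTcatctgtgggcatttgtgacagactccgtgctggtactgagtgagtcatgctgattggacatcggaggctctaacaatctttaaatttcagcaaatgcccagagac
Bglap: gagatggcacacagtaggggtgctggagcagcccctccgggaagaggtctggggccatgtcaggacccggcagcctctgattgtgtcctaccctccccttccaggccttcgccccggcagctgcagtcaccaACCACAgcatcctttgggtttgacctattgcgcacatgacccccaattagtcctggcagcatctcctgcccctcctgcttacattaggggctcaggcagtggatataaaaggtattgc
The match begins 112 bases before the start site in Mepe and 118 bases before it in Bglap. Of 33469 such windows listed by RefSeq, 14.5% hold the letters on either strand, and of the 11024 windows of tested genes 11.4% do. A match is a run of letters and not a measured site.

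Enzymes that modify collagen before secretion rose in part. Of 24 tested genes of collagen synthesis 6 were higher (7.21% of all genes were) and none was lower, with a median of 0.01, and 3 were higher with the marrow score as a covariate. P4ha1 and P4ha2 encode the catalytic subunits of prolyl 4-hydroxylase, which stabilizes the collagen helix. P4ha1 had signals of 7.34, 7.31, 7.96, 8.30 and 9.24 on the 50 mg/kg arrays, against 5.83, 6.61, 5.65, 5.52 and 4.85 on the vehicle arrays, and P4ha2 of 6.31, 6.17, 6.53, 6.77 and 7.34 on the 50 mg/kg arrays, against 4.44, 4.91, 4.44, 4.64 and 4.10 on the vehicle arrays. Neither gene had overlapping groups, and the differences were 2.34 (SE 0.27, adjusted p = 4.67e-10) for P4ha1 and 2.12 (SE 0.24, adjusted p = 8.57e-11) for P4ha2. Lysyl hydroxylases Plod1 and Plod3 and the prolyl 3-hydroxylase family genes P3h1 and P3h4 rose by 0.72, 0.64, 0.74 and 0.78. A second probe set of P4ha2, near the bottom of the scale, differed by -0.04. The genes of type I collagen chains fell on the same arrays on which these modifying enzymes rose.

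Other genes that are known to answer to low oxygen in many cell types moved like P4ha1, and are named here after their values were seen. Bnip3, a mitochondrial protein of mitophagy, averaged 6.90 ± 0.62 at 50 mg/kg and 4.51 ± 0.45 in vehicle (SD, n = 5 each), a difference of 2.39 (SE 0.23, adjusted p = 2.97e-13). Ndrg1, a stress-responsive gene, rose by 2.32 (SE 0.29, adjusted p = 3.94e-09), and the glycolytic aldolase Aldoc by 2.32 (SE 0.24, adjusted p = 4.89e-12). The growth factor Vegfa rose by 1.10 (SE 0.21, adjusted p = 4.28e-05). Dimmer probe sets of Vegfa and Ndrg1 differed by 0.10 and 0.37. No list of such genes was tested, so nothing is said of the response as a whole. The promoters of Bnip3 and P4ha2 are shown because they carry the core letters ACGTG of the site bound by hypoxia-inducible factors, in capitals on either strand, in the 250 bases before the start site (RefSeq, GRCr8, chr1:203154963-203155212 on the minus strand for Bnip3 and chr10:38743644-38743893 on the plus strand for P4ha2).
Bnip3: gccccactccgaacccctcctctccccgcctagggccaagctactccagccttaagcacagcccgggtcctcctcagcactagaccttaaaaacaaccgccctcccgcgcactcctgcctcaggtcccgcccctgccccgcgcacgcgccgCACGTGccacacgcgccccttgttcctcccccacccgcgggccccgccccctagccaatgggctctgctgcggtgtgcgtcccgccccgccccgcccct
P4ha2: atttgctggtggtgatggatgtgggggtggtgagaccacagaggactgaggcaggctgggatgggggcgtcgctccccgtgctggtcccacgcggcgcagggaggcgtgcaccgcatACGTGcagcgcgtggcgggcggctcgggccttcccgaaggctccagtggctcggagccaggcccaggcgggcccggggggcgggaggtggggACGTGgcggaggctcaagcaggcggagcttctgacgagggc
Bnip3 and P4ha2 each hold 2 matches, those of Bnip3 overlapping as a palindrome, Aldoc holds 1 and P4ha1 holds 0 in this window. Of all 33469 windows 16.6% hold the letters and of those of tested genes 21.1%, so a match is common.

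A minority of genes of the Wnt pathway, on which sclerostin acts, rose, and none fell. Of 16 tested Wnt target genes 4 were higher (7.21% of all genes were) and none was lower, with a median of 0.08. Ccn4, a secreted target known as WISP1, had signals of 5.53, 6.64, 5.04, 5.28 and 5.49 on the 50 mg/kg arrays, against 3.06, 4.88, 4.20, 4.55 and 4.14 on the vehicle arrays. All treated arrays were above all vehicle arrays, with a difference of 1.43 (SE 0.26, adjusted p = 2.64e-05). The others were Cd44, Ccn5 at 0.51 and the gap junction gene Gja1 at 0.50, and the call of Gja1 was lost under several settings, leaving out vehicle replicate 3 or 5 among them. Lef1, a nuclear partner of beta-catenin, was at 0.06 and Twist1 at -0.50, neither called.

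Among 20 tested Wnt ligands and receptors 5 were higher (7.21% of all genes were) and none was lower, with a median of 0.12. Wnt5b, a ligand of the non-canonical branch, had signals of 6.25, 6.83, 7.004, 6.72 and 7.32 on the 50 mg/kg arrays, against 4.85, 6.01, 4.94, 5.69 and 4.80 on the vehicle arrays. No arrays overlapped, and the difference was 1.57 (SE 0.28, adjusted p = 2.34e-05). The receptors Lgr6, Ryk, Fzd6 and Fzd3 rose by 1.02, 0.77, 0.65 and 0.36. The sclerostin receptors themselves were not called, with -0.05 for Lrp5, -0.16 for Lrp6 and 0.37 for Lrp4. Without vehicle replicate 5 only 2 ligands and receptors were higher, without treated replicate 4 or 5 there were 3, and with the marrow score as a covariate there were 2. Without vehicle replicate 3, 4 were higher and 1 was lower. The call of Ryk was lost in 9 of 18 alternatives and that of Fzd6 in 4. Of 12 tested Wnt antagonists and feedback genes 1, Sost, was called. Axin2, Tnfsf11 and Fgf23 fell below the signal filter, and Dkk1, Runx2 and Sp7 had no probe set of a single gene, so these were not tested.

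The largest rise belonged to LOC100912227, annotated in RefSeq as a long non-coding RNA at chr4:35911653-35959459 (GRCr8). Its signals were 6.90, 6.95, 7.79, 7.47 and 7.48 on the 50 mg/kg arrays, against 2.93, 4.72, 4.03, 3.89 and 3.21 on the vehicle arrays. The groups were far apart, with a difference of 3.56 (SE 0.38, adjusted p = 1.12e-11) and a ratio of 11.8. Magi1, a scaffold protein of cell junctions, had signals of 7.13, 6.34, 6.99, 7.37 and 8.04 on the 50 mg/kg arrays, against 4.02, 4.97, 2.90, 5.08 and 3.06 on the vehicle arrays. All treated arrays lay above the highest vehicle array, and the difference was 3.17 (SE 0.39, adjusted p = 2.09e-09), although the other 4 probe sets of Magi1, all dimmer, differed by -0.29 to 0.94. Cnr1, the CB1 cannabinoid receptor, had signals of 4.70, 5.29, 4.66, 5.66 and 6.16 on the 50 mg/kg arrays, against 2.58, 2.68, 2.59, 2.60 and 2.57 on the vehicle arrays. The vehicle arrays lay at the bottom of the scale, and the difference was 2.69 (SE 0.22, adjusted p = 3.12e-16). A dimmer probe set of Cnr1 differed by -0.13, so this rise rests on a single probe set. Sparcl1, a matricellular protein related to osteonectin, and Tnnc1, troponin C of slow muscle, rose by 2.65 and 2.82. Ccn2, a matricellular protein induced by TGF-beta, rose by 2.33 (SE 0.34, adjusted p = 1.94e-07).

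Immediate early and heat shock genes rose in part. Of 23 tested 8 were higher and none was lower, against 7.21% and 6.19% of all genes, with a median of 0.38. Egr2, a zinc finger factor of immediate early type, had signals of 7.04, 7.59, 7.70, 7.95 and 8.46 on the 50 mg/kg arrays, against 5.73, 5.97, 4.34, 5.96 and 3.89 on the vehicle arrays. All treated arrays exceeded all vehicle arrays, with a difference of 2.57 (SE 0.37, adjusted p = 1.54e-07), while a dim second probe set differed by -0.23. Hspb1, a small heat shock protein, and Egr1 rose by 2.11 and 1.45, and Fos by 0.70. Junb was at 0.15 and Nr4a1 at -0.19, neither called. Without vehicle replicate 3 there were 5 higher, and 5 with the marrow score as a covariate.

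Part of the genes of the cytoplasmic ribosome rose by small amounts. Of 40 tested cytosolic ribosomal protein genes 16 were higher (7.21% of all genes were) and none was lower, with a median of 0.32, and Rpl21 had signals of 11.82, 12.02, 12.28, 11.97 and 12.40 on the 50 mg/kg arrays, against 11.61, 11.55, 11.38, 11.47 and 11.41 on the vehicle arrays. The treated arrays lay above the vehicle arrays with a difference of 0.61 (SE 0.10, adjusted p = 5.08e-06). Without vehicle replicate 5 there were 10 higher, and 11 with the marrow score as a covariate. Of 28 tested ribosome biogenesis genes none was higher and 2 were lower, near the 6.19% of all genes, and the lists were not tested against each other. Of 19 tested p53 target genes 4 were higher and 1 was lower, and none was called with the marrow score as a covariate. Cdkn1a, the cell cycle inhibitor p21, averaged 6.72 ± 0.54 at 50 mg/kg and 5.29 ± 0.43 in vehicle (SD, n = 5 each) with a difference of 1.42 (SE 0.26, adjusted p = 3.78e-05). It lost its call with the marrow score as a covariate (adjusted p = 0.0741).

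Endothelial and skeletal muscle markers rose in part. Of 17 tested endothelial markers 9 were higher (7.21% of all genes were), 8 were not called and none was lower, with a median of 0.52, the largest share of higher members among the 32 lists. Emcn, endomucin of capillary and sinusoidal vessels, had signals of 5.27, 4.93, 5.68, 6.28 and 6.56 on the 50 mg/kg arrays, against 4.53, 4.88, 3.24, 3.37 and 3.71 on the vehicle arrays. The groups did not overlap, although vehicle replicate 2 came close to the lowest treated array, and the difference was 1.80 (SE 0.27, adjusted p = 5.74e-07). Plvap, Tek, Stab1 and Cldn5 rose by 1.41, 1.36, 1.26 and 1.14, while Vwf was at -0.55 and Kdr rose by 0.52. The mean of the endothelial list ran from 4.41 to 5.10 on the 50 mg/kg arrays and from 3.75 to 4.40 on the vehicle arrays. Of 23 tested muscle markers 3 were higher (Tnnc1, Tpm2 and Myh1), and the defining creatine kinase Ckm was at 0.29, not called. The median muscle difference was 0.26, and 22 of the 23 lay above 0, against 5704 of all 11859 genes. The mean of the muscle list ran from 3.65 to 4.31 on the 50 mg/kg arrays and from 3.27 to 3.43 on the vehicle arrays, without overlap. The part of vessel or muscle tissue in the osteocyte results was not tested.

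Most genes of dividing cells on the list fell, and so did most erythroid markers. Of 37 tested cell cycle genes 27 were lower, against 6.19% of all genes, and none was higher, with a median of -0.76. Ccnb2, a mitotic cyclin, had signals of 6.29, 7.52, 6.49, 7.14 and 6.80 on the 50 mg/kg arrays, against 8.79, 8.06, 8.16, 7.77 and 8.30 on the vehicle arrays. The treated arrays were all lower, with a difference of -1.37 (SE 0.25, adjusted p = 2.18e-05). Mcm3, a part of the replicative helicase, had signals of 5.76, 6.02, 5.53, 6.09 and 6.17 on the 50 mg/kg arrays, against 7.19, 6.75, 6.99, 6.90 and 7.14 on the vehicle arrays. Here too the groups were apart, with a difference of -1.08 (SE 0.23, adjusted p = 0.000391). Without vehicle replicate 1 the number of lower cell cycle genes was 16.

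Of 17 tested erythroid markers 10 were lower (6.19% of all genes were) and none was higher, with a median of -0.88. Alas2, the first enzyme of haem synthesis in red cells, had signals of 8.48, 8.64, 8.09, 8.66 and 8.24 on the 50 mg/kg arrays, against 10.60, 9.58, 9.85, 9.44 and 10.52 on the vehicle arrays. The groups did not overlap, and the difference was -1.58 (SE 0.27, adjusted p = 9.38e-06). Slc4a1 (band 3) and the erythroid factors Gata1 and Klf1 fell, with differences of -1.27, -0.98 and -0.81. Only 3 erythroid markers were lower without vehicle replicate 1, and 6 without vehicle replicate 5. The mean erythroid signal ran from 6.52 to 6.85 on the 50 mg/kg arrays and from 7.004 to 8.053 on the vehicle arrays. With the marrow score as a covariate 0 cell cycle genes and 0 erythroid markers were called in either direction by limma (2 and 1 had an unadjusted p under 0.05), and the score is itself built partly from the erythroid list. The part of marrow cells in the fall of the cell cycle genes was not tested beyond this covariate.

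**Figure D3:**
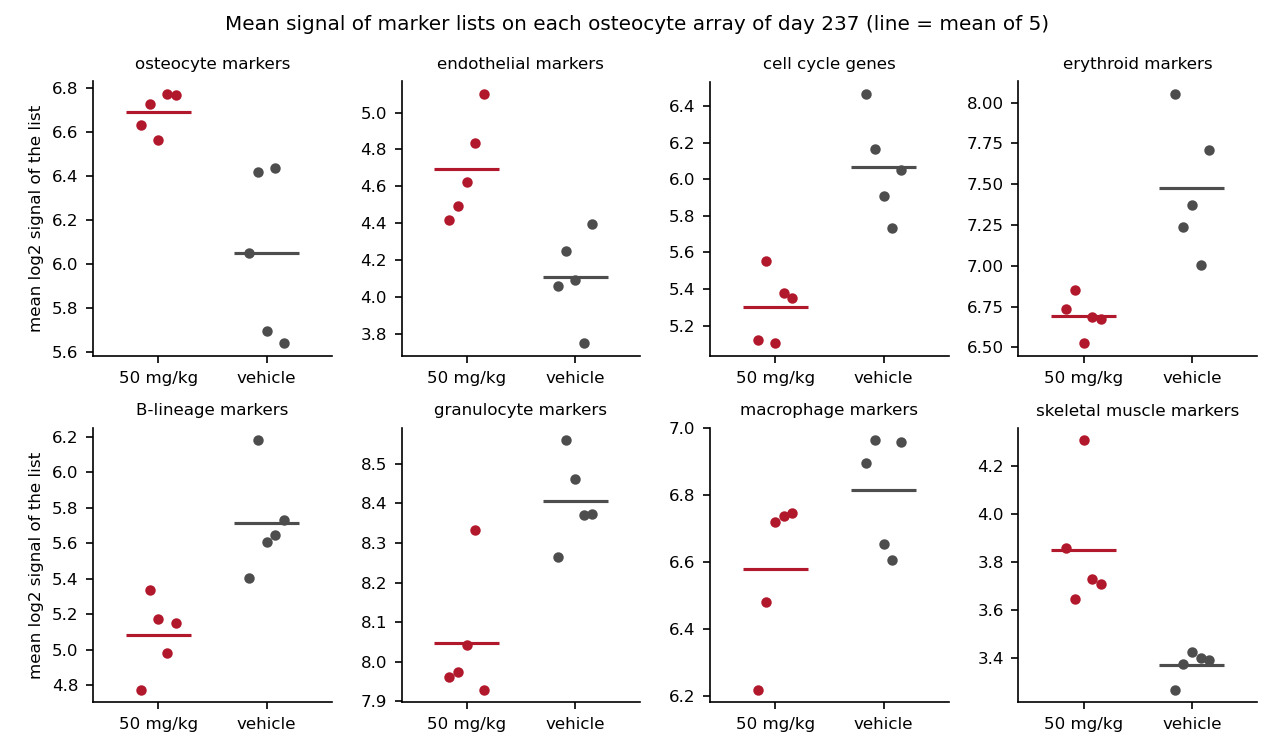
Mean log2 signal of 8 gene lists on each osteocyte array of day 237, the 50 mg/kg arrays left and the vehicle arrays right; points are arrays and lines are means of 5. Osteocyte and endothelial means are higher in the treated arrays, and cell cycle and erythroid means are lower without overlap (erythroid 6.52 to 6.85 against 7.004 to 8.053).

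Markers of other blood lineages were called in part, against 6.19% lower among all genes. Of 10 tested B-lineage markers 4 were lower, with a median of -0.41, among them Ms4a1 (CD20) at -1.02, but only 1 was lower without vehicle replicate 2. Of 13 tested macrophage markers 2 were lower, with a median of -0.20. Cd163, the haemoglobin scavenger receptor of macrophages, had signals of 4.01, 5.21, 5.19, 5.44 and 5.98 on the 50 mg/kg arrays, against 8.03, 6.68, 6.31, 6.998 and 7.42 on the vehicle arrays. Its groups did not overlap, with a difference of -1.92 (SE 0.30, adjusted p = 9.31e-07), while Csf1r and Cd68 were both at 0.16 and not called. Fcna, a ficolin of innate defence, fell by 2.02 on the log2 scale (SE 0.29, adjusted p = 1.13e-07), and E2f2, a cell cycle factor abundant in red cell precursors, by 1.88 on the log2 scale (SE 0.34, adjusted p = 2.33e-05). None of 11 granulocyte markers was called, although 5 had an unadjusted p under 0.05, 3 of 21 interferon response genes were lower (Irf7, Rsad2 and Irf9), and 3 of 16 adipocyte markers were lower, with 1 to 6 lower when any one array was left out. With the marrow score as a covariate 1 B-lineage marker was lower and 1 higher, 1 interferon response gene was lower and no adipocyte marker was called.

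Against 7.21% higher and 6.19% lower among all genes, 1 of 11 tested osteoclast markers was lower, a share near that background. It was Car2, which erythroid cells also express, and Acp5 and Mmp9 were at 0.22 and 0.28, not called. Tnfrsf11b, the decoy receptor osteoprotegerin that restrains osteoclasts, was at 0.30, not called. The phosphate and mineralization list was split, with 7 of 20 higher and 4 lower (5 and 2 with the marrow score as a covariate). Fgfr1, the receptor of phosphate-regulating Fgf23, rose by 1.75, Fam20c, the kinase of secreted phosphoproteins, by 1.75 and the pyrophosphate exporter Ankh by 1.29. Of 21 tested osteoblast differentiation genes 5 were higher and 4 lower. Besides Mef2c and Bmp2, those higher were the homeobox genes Dlx3 (2.11) and Dlx5 (1.42) and Sox4 (0.47). Of 21 tested cytoskeleton and dendrite genes 6 were higher and none was lower, Tpm2 at 1.85 and Cnn3, a calponin, among them. Of 11 tested megakaryocyte markers 2 were lower, Nfe2 and Gp9, with a median of -0.58 and 10 of 11 differences below 0, and without treated replicate 5 the median was -0.21 with 1 lower. No proteasome gene of 30 and no chondrocyte marker of 12 was called by limma, with 4 and 2 at an unadjusted p under 0.05.

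The largest falls of genes in none of the lists, beside Fcna and E2f2, were those of Car3, Smarca4, Lrrfip1, Slc38a5 and Stfa2l2. Car3, carbonic anhydrase III, fell by 2.10 on the log2 scale (SE 0.42, adjusted p = 0.000163) with overlapping groups, and Smarca4, a chromatin remodeller, by 1.88 on the log2 scale (SE 0.30, adjusted p = 1.92e-06), also with overlap. Dimmer probe sets of both genes differed less, with -0.15 for Car3 and at most -0.40 for Smarca4. Lrrfip1 fell by 1.84 on the log2 scale (SE 0.36, adjusted p = 8.15e-05), whereas another of its probe sets differed by 0.45.

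Many genes that rose on day 237 had already risen on day 183, the end of dosing. On day 183, measured against its own vehicle arrays, 593 genes (5% of those tested) were higher and 174 (1.47%) lower, 6.47% together, and 18.4% had an unadjusted p under 0.05. Of the 855 genes higher on day 237, 381 (44.6%, and 64.2% of day 183's) were also higher on day 183, and 95% had the same sign, against 64.8% of all genes. Of the 734 lower genes, 68 (9.26%, and 39.1% of day 183's) were also lower on day 183. Mepe differed by 2.82 on day 183 and 2.86 on day 237, Mef2c by 3.03 and 2.78, and Bambi by 2.93 and 3.22. The change between the days was 0.04 for Mepe (SE 0.61, adjusted p = 0.993), -0.25 for Mef2c (SE 0.48, adjusted p = 0.923) and 0.29 for Bambi (SE 0.61, adjusted p = 0.933), and none passed.

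The difference between the responses of the 2 days was tested directly. Only 8 genes (0.0675%) had a response of day 237 that differed from that of day 183, although 1062 (8.96%) had an unadjusted p under 0.05. In 3 (0.0253%) the response was higher on day 237, and these were Gas6, a ligand of TAM receptors, at 1.78, the hydrolase gene Abhd14b at 1.18 and the osteoclast protease Ctsk at 1.001. In 5 (0.0422%) it was lower, including Enpp2 (autotaxin) at -1.98 and the transcription factor Stat3 at -1.88. Without single arrays this count lay between 0 and 15, and each of the 8 lost its call under several alternatives. Col1a1 was at -0.36 on day 183 and -1.87 on day 237, but the change between the days, -1.51, did not pass (adjusted p = 0.234). For Bglap, with -1.21 on day 183 and -2.11 on day 237, the change was -0.90 (adjusted p = 0.541).

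By day 309, 126 days after dosing ended, several products of bone-forming cells lay above vehicle. On that day, against its own vehicle arrays, 631 genes (5.32%) were higher and 1290 (10.9%) lower, and 29.7% had an unadjusted p under 0.05. Bglap differed by 0.90 on day 309, Col1a1 by 0.99 and Cthrc1 by 1.04, all above vehicle and called. Col1a2 at 0.58 and Serpinf1 at 0.92 were not called on that day. Subtracting the day 237 response from that of day 309 gave 3.01 for Bglap (adjusted p = 1.59e-05), 2.86 for Col1a1 (adjusted p = 0.000211), 2.70 for Serpinf1 (adjusted p = 0.000578) and 1.87 for Col1a2 (adjusted p = 0.0031). These 4 differences passed under all 28 alternative settings, leaving out any one of the 20 arrays included. Of the 33 matrix genes 8 had a higher response on day 309 than on day 237 (0.548% of all genes did) and none a lower one, and 16 were higher than vehicle on day 309.

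Some genes that were high on day 237 had a smaller response on day 309. In all, 334 genes (2.82%) had a response on day 309 that differed from day 237, 65 higher (0.548%) and 269 lower (2.27%). Of 20 osteocyte markers 1 had a lower response on day 309 (Ackr3, at -1.82, called in 13 of 28 alternatives) and 1 a higher one (Tmem119, at 1.37), and of 33 TGF-beta and BMP genes 3 had a lower one and none a higher one. Magi1 differed by 0.59 on day 309, and the change from day 237 was -2.58 (adjusted p = 0.00398). Id1 changed by -1.73 (adjusted p = 0.00858), Cnr1 by -1.79 (adjusted p = 0.000228), P4ha2 by -1.42 (adjusted p = 0.0099) and the endothelial Emcn by -1.59 (adjusted p = 0.0123). Each of these lost its call when only the groups compared were fitted, where 7 genes passed in all, and Emcn also without vehicle replicate 3 of day 237 or treated replicate 5 of day 309. Mepe stood at 2.83 on day 309, and its change of -0.03 did not pass (SE 0.61, adjusted p = 0.99). Dmp1 was at 1.27 and its change of -0.42 did not pass (adjusted p = 0.669). Leaving out single arrays moved the 334 to between 106, without vehicle replicate 3 of day 237, and 663, without vehicle replicate 2 of that day, and 11 of the 20 arrays moved it by more than 1.5 times.

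**Figure D4:**
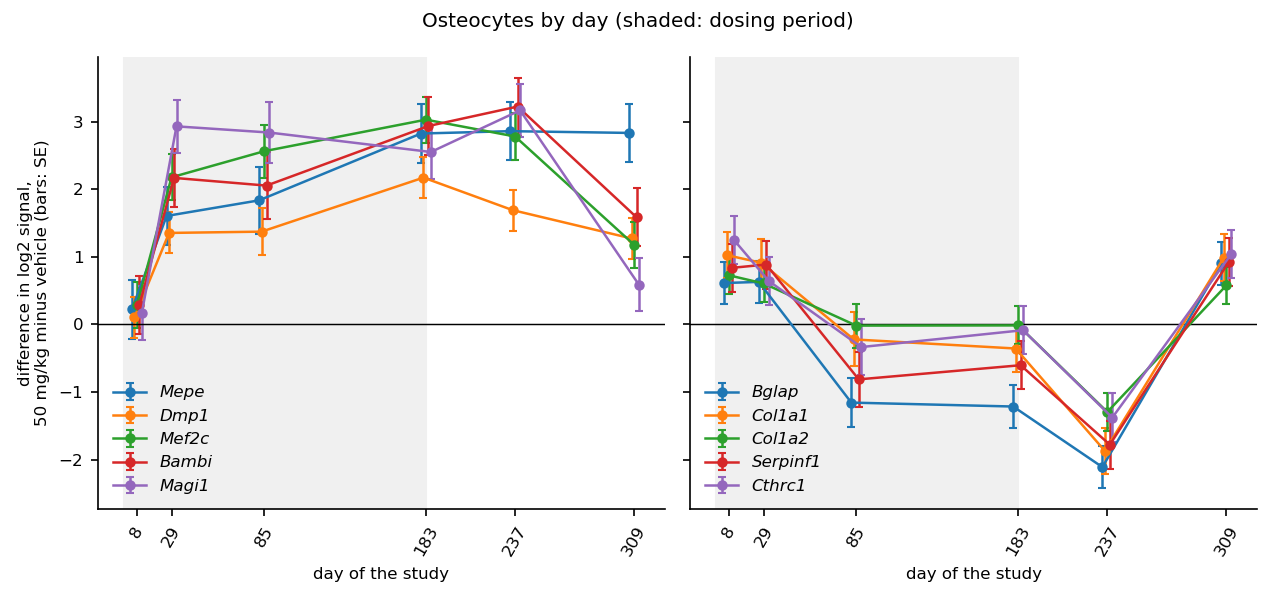
Difference in log2 signal between 50 mg/kg and vehicle osteocyte arrays by day of the study, with bars of 1 SE and the dosing period shaded; each day has its own vehicle arrays. Osteocyte and signalling genes (left) stay high on days 183 and 237, with Mepe still at 2.83 on day 309, whereas the products of bone-forming cells (right) start above zero, are lowest on day 237 (Bglap -2.11) and lie above zero on day 309 (Bglap 0.90).

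The earlier days of dosing give the course before withdrawal. On day 8 Sparc was above vehicle by 1.26 and Col1a1 by 1.03, of which Sparc was called (adjusted p = 0.0272), while Mepe stood at 0.22. On day 29 Mepe had reached 1.605 and Mef2c 2.18, both called. By day 85 Bglap differed by -1.16 and Col1a1 by -0.22. Day 85 has 3 treated arrays, and the differences between these days were not tested.

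Set against vehicle arrays of all 8 days, the treated means of day 237 lay above every vehicle day's mean for 67 of the 140 named genes tested, below for 29 and inside for 44. Many of these genes were named because they differed on day 237, so the counts follow in part from that choice. The share over all tested genes was not computed. Vehicle means of Mepe ran from 9.21 on day 309 to 11.64 on day 8, below the 13.13 of the treated arrays of day 237. Vehicle means of Bglap ran from 10.53 on day 309 to 11.93 on day 8, above the 8.87 of the treated arrays. Vehicle means of Ccnb2 ran from 6.65 to 7.23 on days 8 to 183 and from 8.22 to 8.55 on days 197 to 309. Those of Alas2 ran from 7.69 to 8.33 on the earlier days and from 10.0 to 10.2 on the later ones. The treated mean of 6.85 for Ccnb2 lay inside the earlier range, and that of 8.42 for Alas2 lay between the ranges. The mean marrow score of vehicle osteocyte arrays ran from 6.42 to 6.805 on days 8 to 183 and from 7.16 to 7.35 on days 197 to 309. What set the earlier and later vehicle days apart was not tested.

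The rises were tested for whether they differ between osteocytes and the other captured cells of day 237. In a joint fit over 12507 genes the response was higher in osteocytes than in osteoblasts for 703 genes (5.62%) and lower for 357 (2.85%). Against lining cells it was higher for 398 (3.18%) and lower for 134 (1.07%), 4.25% together. Bambi differed by 3.22 in osteocytes, -0.30 in osteoblasts and -0.12 in lining cells, a difference between cell types of 3.52 (adjusted p = 4.02e-11) and 3.34 (adjusted p = 1.37e-10). Mef2c, Ackr3, Tgfb2, Magi1, P4ha2 and LOC100912227 likewise had larger responses in osteocytes than in either other cell type, with differences of 1.94 to 3.44. Bambi averaged 6.08 over osteocyte arrays and 4.55 over arrays of all 3 cell types, and Ackr3 averaged 5.59 and 3.69. Magi1 averaged 5.25 and 4.04 in the same way, and LOC100912227 4.92 and 3.78. These genes are thus dimmer in the other cells, where a response can be hidden. Dmp1 had a response of -0.72 in osteoblasts and -0.49 in lining cells, and differed from both (2.42, adjusted p = 0.00193; 2.18, adjusted p = 0.00701). Mepe differed from osteoblasts by 2.27 (adjusted p = 0.034) and from lining cells by 2.09, which did not pass (adjusted p = 0.0701).

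For Bglap and Col1a1 no such difference passed. Bglap differed from vehicle by -1.45 in osteoblasts and -1.19 in lining cells, and osteocytes minus osteoblasts was -0.66 (SE 0.57, adjusted p = 0.526). Col1a1 differed by -0.96 in osteoblasts and -0.21 in lining cells, with -0.91 (adjusted p = 0.376) between osteocytes and osteoblasts and -1.66 (adjusted p = 0.0908) between osteocytes and lining cells. Among the 33 matrix genes the response of osteocytes was higher than that of osteoblasts for Lum and Ogn, small proteoglycan genes, and lower than that of lining cells for Col5a1. Over all genes the shares were 5.62% and 1.07%, so the first count lay near the background and the second is a single gene. A p that misses the threshold does not show that the cell types respond alike. The osteoblast group at 50 mg/kg has 4 arrays, and the signal distributions of the 3 cell types differ. Of the called genes, Lrrfip1 fell in osteocytes and was higher by 1.88 in osteoblasts.

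**Figure D5:**
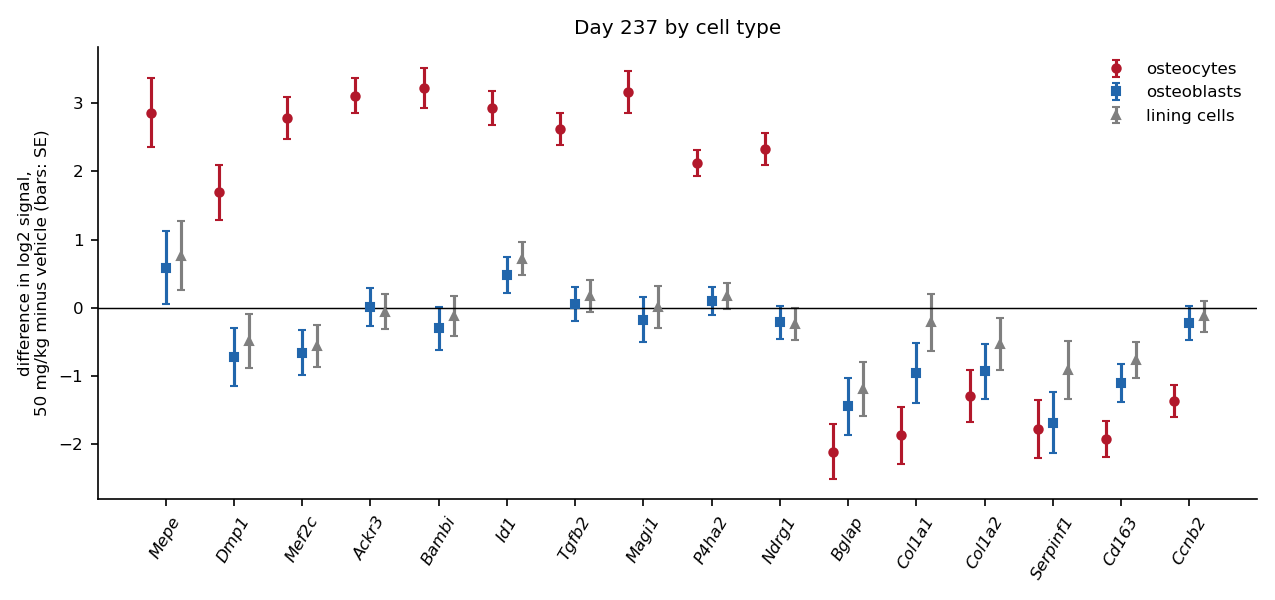
Difference in log2 signal between 50 mg/kg and vehicle on day 237 in osteocytes, osteoblasts and lining cells, with bars of 1 SE from the joint fit. Rises such as that of Bambi appear in osteocytes (3.22) and not in osteoblasts (-0.30) or lining cells (-0.12), while Bglap lies below zero in each of them (-2.11, -1.45 and -1.19). Bambi is dimmer outside osteocytes, where a response can be hidden.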

How the data were processed

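Gene expression was measured on Affymetrix rat arrays of laser-captured vertebral osteocytes, osteoblasts and lining cells. The deposited values are intensity signals on a linear scale from 2.94 to 28282, per the file headers and the values. Per the submitters' processing notes RMA was among the methods, and the tools were affy 1.38.1, R 3.0.1 and Affymetrix Expression Console, with no roles given. Here log2 was taken. Of 31042 probe sets 20826 had 1 listed gene, 436 several and 9780 none, and each of 14217 genes was represented by its probe set of highest mean. Genes above the array median on at least 5 arrays were tested, 11859 in osteocytes and 12507 over the 3 cell types.

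Fits used limma 3.58.1 in R 4.3.3 (with version 1.17.8 of the data.table package), with 1 mean per treatment and day. The 20 osteocyte groups shared 1 estimate of the spread, and responses between cell types came from a fit of all arrays. Calls had a Benjamini-Hochberg adjusted p under 0.05 over all genes tested. The fit was tested on simulated data. Alternatives changed the filter, normalization, probe set choice, array weights, groups fitted and covariates, or left out arrays.

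Genes were named as the 12 largest rises and falls in which each of the 5 treated arrays deviated from the mean of vehicle in the same direction, up to 4 called members of each of 32 lists by smallest p, 30 fixed genes, and the 4 largest each way of each difference between days or cell types. Other genes, among them Bnip3, Ndrg1, Aldoc, Ccn2, Sparc, Col5a1, Smoc2, Col6a3, Dspp and further list members, were named after their values were seen. The comparison, the lists and the fixed genes were chosen with earlier results of these data known. Promoter sequences are RefSeq's on GRCr8.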

Additional observations from a re-analysis of the deposited data

Results flagged for a closer look

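On 1 vehicle array, replicate 5, E2f2 stood apart at a log2 signal of 9.003, against 7.553 to 7.906 on the other vehicle arrays. The mean log2 signal of the granulocyte markers stood apart on 50 mg/kg replicate 4, at 8.332 against 7.929 to 8.042 on the other treated arrays. Chance alone sets 1 array apart in this way in about 1 in 20 groups.

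Other genes drew attention because their response to 50 mg/kg, as a log2 difference from vehicle, differed between days or cell types by limma's test of that difference. In osteocytes, day 237 against day 183, the response differed by 1.78 for Gas6, 1.18 for Abhd14b and 1 for Ctsk, and by -1.98 for Enpp2, -1.88 for Stat3, -1.55 for Ncoa4 and -1.19 for Rasa1. Day 309 against day 237, it differed by 3.01 for Bglap, 2.86 for Col1a1, 2.70 for Serpinf1 and 2.42 for Cthrc1. In the other direction it differed by -2.58 for Magi1, -2.56 for Jchain (the joining chain of antibodies), -2.20 for the kinase Hipk1 and -1.93 for Tnnc1.

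The response of osteocytes minus that of osteoblasts on day 237 was 3.52 for Bambi, 3.44 for Mef2c, 3.38 for LOC100912227 and 3.34 for Magi1. It was -3.71 for Lrrfip1, -2.61 for Tnrc6b, -2.53 for Golim4 and -2.52 for the linker histone H1f4, and that of Golim4 turned to 0.75 and lost its call (adjusted p = 0.112) when only the groups compared were fitted. The response of osteocytes minus that of lining cells was 3.37 for LOC100912227, 3.34 for Bambi, 3.34 for Mef2c and 3.17 for Ackr3. It was -1.88 for the clotting factor F5, -1.82 for Fcna, -1.71 for Alox12 and -1.62 for the platelet glycoprotein Gp9.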

How the results depend on the processing

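Among the 140 named genes, no day 237 difference that was called in the reported fit or in the alternative changed direction. Changes of direction in differences called in neither fit were not counted. Among differences between cell types the sign turned for Golim4 (osteocytes minus osteoblasts, -2.53, at 0.75 with only the groups compared) and for Cnr1 (osteocytes minus lining cells, 2.76, down to -0.17 without 50 mg/kg replicate 2 or 5). The probe set of highest mean was chosen anew in each fit. For Cnr1 a dimmer probe set, at -0.13 in osteocytes, thereby replaced the reported one, at 2.69, so the turn does not show that the rise rests on those arrays. Of 2514 recomputed day 237 differences of single genes 2302 kept their side of the threshold, 204 lost it and 8 gained it. The marrow score as a covariate cost 49 named genes their call. The 140 named genes include some, such as Phex, Spp1 and Ibsp, that had no call to lose. The 1589 genes called on day 237 became 794 (439 higher, 355 lower) with only the groups compared, where fewer genes were tested, and 772 (639 higher, 133 lower) with the marrow score, and without single arrays 1180 to 1657. The 8 genes between days 237 and 183 became 2 with the mean of the probe sets, 20 with array weights and 0 with the marrow score (1062 had an unadjusted p under 0.05 in the reported fit), and without single arrays 0 to 15. The 334 genes between days 309 and 237 became 638 with array weights and 7 with only the groups compared, and without single arrays 106 to 663. The 1060 genes between osteocytes and osteoblasts became 625 with only the groups compared and 2547 with the marrow score, and without single arrays 693 (without 50 mg/kg replicate 5) to 1444. The 532 genes between osteocytes and lining cells became 296 and 1464 under the same alternatives, and without single arrays 338 to 726 (338 without 50 mg/kg replicate 5 and 347 without vehicle replicate 5). Scaling moved the split of higher and lower genes between osteocytes and osteoblasts, reported as 703 and 357, to 628 and 605 with the signal range as a covariate and to 651 and 469 with quantile normalization. The split between days 309 and 237, reported as 65 and 269, was 115 and 184 with the signal range. The mean of the probe sets lowered Magi1 to 0.84, Cnr1 to 1.28, Egr2 to 1.17, P4ha2 to 1.04 and Ndrg1 to 1.35. It also lowered Tgfb2 to 1.32, Smoc2 to 0.57, Vegfa to 0.60 and Col6a3 to 0.63. Fgfr1 came to 1.06, Tpm2 to 1.03 and Cdkn1a to 0.82 in the same way. The marrow score lowered Dmp1 to 0.97 and ended the calls of E2f2, Ccnb2, Mcm3, Alas2 and Smoc2. Apart from the switch of probe set for Cnr1, the cause was not tested for any of these changes. No paired analysis was possible because the labels do not name the rat behind an array and replicate numbers follow accession order. Dim probe sets near the bottom of the scale can hide changes.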
